A study of Mus musculus with 16 samples.

Results

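BMAL1 binding at ZT12 was compared with BMAL1 binding at ZT0 in the livers of misaligned mice, within males and within females. The libraries were chosen by their labels: 4 of the 16 samples, which are the male and the female BMAL1 library of misaligned mice at each time. ZT0 is lights on and ZT12 is lights off. The pairs are male ZT12 against male ZT0 and female ZT12 against female ZT0, and the question is where the pairs move alike and where they move in opposite directions.

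The study profiled C57bl6 mice of 8 to 16 weeks under a 12 h light and 12 h dark cycle, with free access to food. They were switched from standard chow to a diet with 42% of calories from fat at the start of the control or misalignment paradigm, so both the misaligned and the control mice ate it. The schedule of the misalignment is not given in the sources used here. Each library came from snap-frozen liver pooled from 3 to 4 mice, so a library is 1 pool and not 1 animal. Chromatin was cross-linked, sonicated and precipitated with a rabbit antibody to BMAL1 or with normal rabbit IgG. Every combination of sex, treatment, time and antibody had 1 library. There is thus no replicate error for any difference, and the smallest two-sided p that an exact sign-flip permutation test over 2 pairs allows is 0.5. No test was run. The intervals printed below cover counting error only.

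BMAL1, encoded by Arntl, pairs with CLOCK and binds E-box sequences to switch on the genes of its own repressors, the Per and Cry genes, and of the nuclear receptors REV-ERB alpha and beta, which in turn silence Arntl. In the liver of mice on a regular light cycle, BMAL1 binding is strongest in the daytime and lowest at night. Its targets there include the PAR-bZIP factors and many genes of glucose, lipid and bile acid metabolism.

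Promoter sequences are shown first, as examples of where an E-box can lie beside a summit. They were chosen after their values were seen and do not stand for their pattern. They are from RefSeq (GRCm38.p6), written 5′ to 3′ on the strand of the gene, and end at the last base before the gene's start or earlier. Each runs up to 50 bases to either side of the summit of the strongest peak among the 4 libraries. Capitals mark the canonical E-box CACGTG. The first 3 belong to intervals called in all 4 libraries: Ciart (a repressor of CLOCK and BMAL1, chr3:95882241-95882341, minus strand), Per1 (chr11:69098755-69098855, plus strand) and Senp8 (a NEDD8-specific protease, chr9:59750778-59750878, minus strand).
Ciart: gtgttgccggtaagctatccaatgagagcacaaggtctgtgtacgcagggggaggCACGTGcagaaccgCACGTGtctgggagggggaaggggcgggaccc
Per1: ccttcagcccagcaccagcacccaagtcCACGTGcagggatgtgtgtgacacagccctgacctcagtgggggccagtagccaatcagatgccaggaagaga
Senp8: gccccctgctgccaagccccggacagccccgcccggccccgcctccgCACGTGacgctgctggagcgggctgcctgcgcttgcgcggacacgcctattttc
The next belong to intervals called at opposite times in the sexes, at ZT12 only in males and at ZT0 only in females: Irs2 (an adaptor of the insulin receptor, chr8:11008930-11009022, minus strand) and Marchf8 (a membrane ubiquitin ligase, chr6:116337939-116338021, plus strand).
Irs2: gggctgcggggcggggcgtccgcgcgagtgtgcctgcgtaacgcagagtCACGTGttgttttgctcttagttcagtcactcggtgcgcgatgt
Marchf8: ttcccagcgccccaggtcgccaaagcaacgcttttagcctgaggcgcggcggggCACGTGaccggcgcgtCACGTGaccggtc
Patterns shared by the sexes are shown by Mea1 (chr17:46680771-46680871, plus strand), called at ZT0 only in both, and Trim45 (a tripartite motif protein, chr3:100922243-100922308, plus strand), called at ZT12 only in both.
Mea1: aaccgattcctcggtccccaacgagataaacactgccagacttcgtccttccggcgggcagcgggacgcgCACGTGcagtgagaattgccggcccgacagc
Trim45: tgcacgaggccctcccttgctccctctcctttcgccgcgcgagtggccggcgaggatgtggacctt
The last were called in 1 library of the 4: Hsph1 (a heat shock protein of the HSP110 family, chr5:149636316-149636402, minus strand) at male ZT12 and P2ry2 (a receptor for extracellular nucleotides, chr7:101011999-101012055, minus strand) at female ZT0.
Hsph1: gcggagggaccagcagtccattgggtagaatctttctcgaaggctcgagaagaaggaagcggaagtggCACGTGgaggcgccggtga
P2ry2: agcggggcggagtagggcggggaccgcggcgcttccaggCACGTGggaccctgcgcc
All but Trim45 hold a canonical E-box in the stretch shown, and the choice was made with the sequences in view. Of the 49 such stretches at named intervals, 14 hold one. Ciart and Marchf8 hold 2. The E-box nearest the summit had its centre 0.5 bp away at Senp8, 1.5 bp at Irs2, 6.5 bp at Marchf8, 7.5 bp at Ciart, 8.5 bp at P2ry2, 19.5 bp at Per1, 20.5 bp at Hsph1 and 22.5 bp at Mea1.

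The number of BMAL1 peaks moved in opposite directions in the pairs. In males the list held 1864 peaks at ZT0 and 5542 at ZT12, a ratio of 2.97 (log2 1.57). In females it held 1330 peaks at ZT0 and 221 at ZT12, a ratio of 0.166 (log2 -2.59). The sexes were thus nearest to each other at ZT0 and farthest apart at ZT12. In the control livers both pairs had fewer peaks at ZT12, with 373 and 290 in males (ratio 0.777) and 225 and 141 in females (ratio 0.627). The male misaligned pair was the one of these 4 pairs with more peaks at ZT12.

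**Figure D1:**
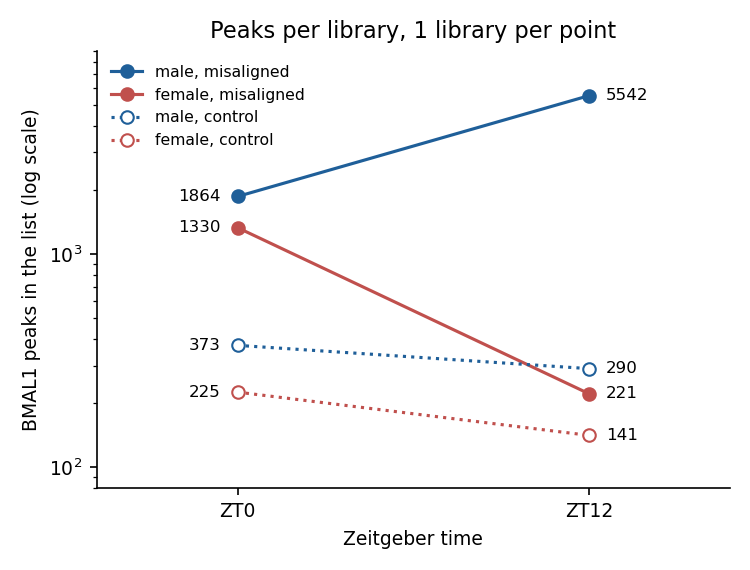
BMAL1 peaks in the list of each library (log scale) at ZT0 and ZT12, with 1 point per library. Filled points and solid lines are misaligned livers, open points and dotted lines control livers, blue males and red females. The male misaligned line climbs from 1864 to 5542 peaks and the female misaligned line drops from 1330 to 221.

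Read depth is not given in the sources used here. The lowest local background of a list, which scales with depth times fragment length, was 4.32 fragments at male ZT0, 4.25 at male ZT12, 5.06 at female ZT0 and 6.14 at female ZT12. The last value rested on 4 peaks. The weakest peak kept in a list had a -log10 p of 4.55, 4.15, 4.75 and 5.45 in the same order, so the shortest list also had the strictest threshold. At a common threshold of 5.45 the ratios were 2.86 in males and 0.172 in females. Peaks on high local background, at least 5 times the lowest of the list, numbered 26 or 27 in each of the 4 lists. Their share was largest at female ZT12, with 27 of 221 peaks, against 27 of 1330 at female ZT0, 27 of 1864 at male ZT0 and 26 of 5542 at male ZT12. Without them the ratios were 3.00 in males and 0.149 in females. The marker lists of endothelial, Kupffer and myeloid, stellate, cholangiocyte and lymphocyte genes had 0 members within 10 kb of a peak in each of the 4 libraries by the authors' nearest gene, where 100 to 1950 of 21900 protein-coding genes had one. By RefSeq starts, 1 Kupffer and myeloid gene was near a peak in every library but female ZT12, and 1 cholangiocyte and 1 lymphocyte gene at male ZT12, against 179 to 2677 of all genes. Genes that define hepatocytes were near peaks at male ZT12, as given below. A ChIP signal cannot tell fewer bound cells from less binding per cell.

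More of the male ZT0 sites than of the female ones were found again at ZT12. A male ZT12 peak overlapped 53.0% of the male ZT0 peaks (exact Clopper-Pearson 95% interval 50.7 to 55.2, 987 of 1864). A female ZT12 peak overlapped 11.3% of the female ZT0 peaks (9.63 to 13.1, 150 of 1330). In the other direction, 17.8% of the male ZT12 peaks (16.8 to 18.8) and 68.3% of the female ZT12 peaks (61.8 to 74.4, 151 of 221) were overlapped by a ZT0 peak. Most peaks of the short female ZT12 list thus met a female ZT0 peak, and most of the long male ZT12 list met no male ZT0 peak. In controls the shares of ZT0 peaks overlapped at ZT12 were 36.5% in males and 19.1% in females.

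These shares depend on list length. With each list shortened to its 221 strongest peaks, 63.3% of the male ZT0 peaks (56.6 to 69.7) and 47.1% of the female ZT0 peaks (40.3 to 53.9) were overlapped at ZT12. In the other direction, 62.4% of the male ZT12 peaks (55.7 to 68.8) and 47.5% of the female ZT12 peaks (40.8 to 54.3) were overlapped at ZT0, so the order of the sexes was the reverse of that with the full lists. The strongest female ZT0 peaks then overlapped the strongest male ZT0 peaks (62.9%) and the strongest male ZT12 peaks (61.1%) more often than the strongest female ZT12 peaks (47.1%). The strongest male ZT12 peaks met the female ZT12 list in 42.5%, the lowest share among the pairs of misaligned libraries at this length.

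How strong a site was at 1 time went with whether it was called at the other. Strength means how far the summit fragments exceeded the local background, in multiples of the list's lowest background, and intervals on high background were left out. Of the male ZT0 intervals, 15.3% of the weakest 25% (12.1 to 18.9) and 94.6% of the strongest 25% (92.1 to 96.4) were called at ZT12. Of the female ZT0 intervals, 0 of 324 in the weakest 25% (where a count of 0 allows up to 3 counts, a share of up to 0.926%, and the exact upper limit is 1.13%) and 36.1% of the strongest 25% (30.9 to 41.6) were. The strongest 25% began at nearly the same strength, 6.07 in males and 6.72 in females, each in multiples of its own list's lowest background. The female share called again was lower. But the ZT12 lists held 5542 peaks in males and 221 in females, with a lowest -log10 p of 4.15 and 5.45. The part of list length and threshold in this difference was not tested. Female ZT0 intervals that were not called at ZT12 had a median strength of 4.61. The weakest 25% of the female ZT12 list ran from 2.37 to 4.03. These values are not on the same fragment scale, as the lowest background was 5.06 fragments at female ZT0 and 6.14 at female ZT12. Whether such sites fell under the ZT12 threshold was not tested.

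**Figure D2:**
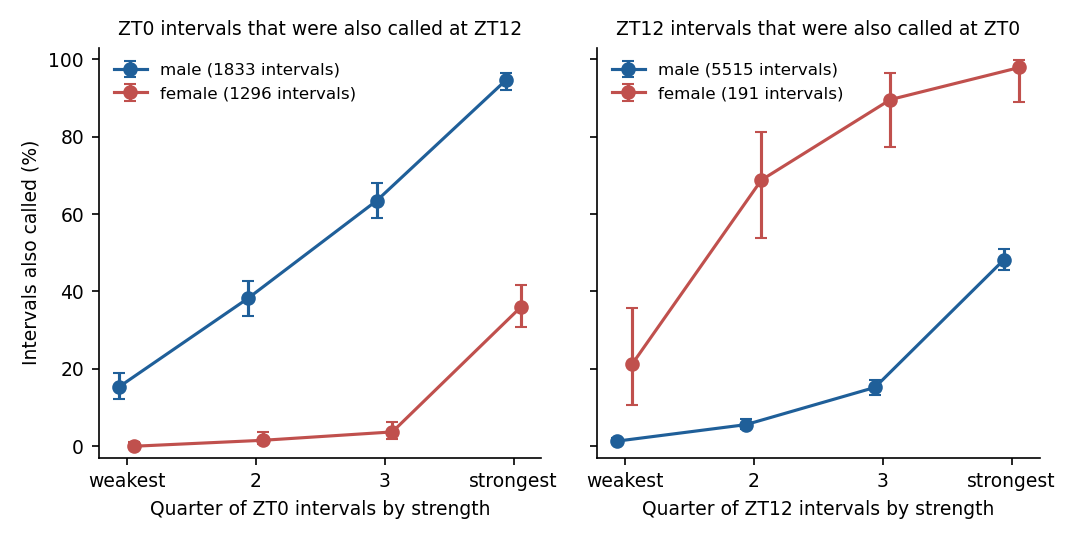
Share of intervals called at 1 time that were also called at the other (%), in classes of 25% by strength at the first time, in misaligned males (blue) and females (red). Bars are exact 95% intervals of counting error. On the left, the strongest 25% of ZT0 intervals was called again at ZT12 in 94.6% of males' and 36.1% of females' intervals.

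The calls of both pairs can be set side by side in the authors' table of 7043 intervals, of which 6854 were called in at least 1 of the 4 misaligned libraries. In males 4555 intervals were called at ZT12 and not ZT0, which is 64.7% of all intervals, and 875 (12.4%) at ZT0 and not ZT12. In females 69 (0.980%) were called at ZT12 and not ZT0, and 1175 (16.7%) at ZT0 and not ZT12. Agreement in direction was rare: 13 intervals (0.185%) were called at ZT12 only in both sexes and 57 (0.809%) at ZT0 only in both. Opposite direction was more frequent and nearly all of 1 kind, with 364 intervals (5.17%) called at ZT12 only in males and ZT0 only in females. The reverse, ZT0 only in males and ZT12 only in females, held for 4 (0.0568%). All 4 libraries shared 137 intervals (1.95%).

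**Figure D3:**
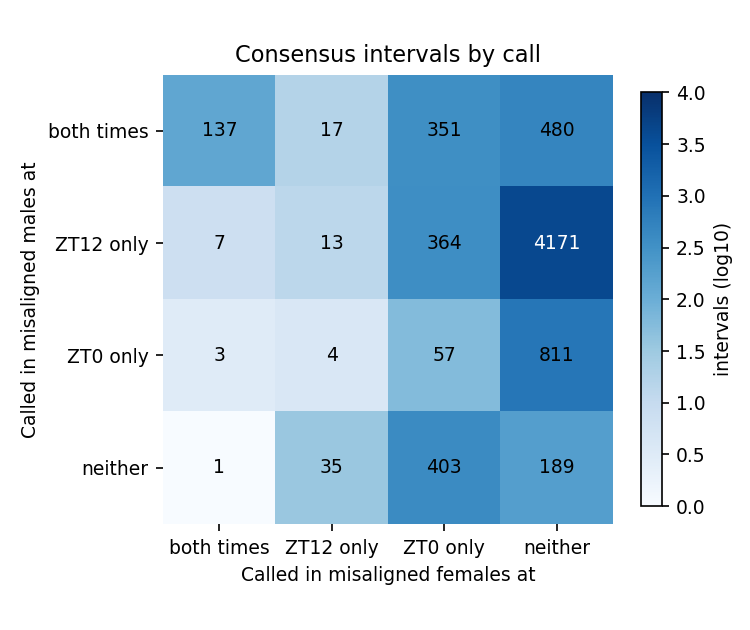
Consensus intervals by the times at which they were called in misaligned males (rows) and misaligned females (columns), with the count in each cell and shading by log10 of the count. The 364 intervals at ZT12 only in males and ZT0 only in females outnumber the 57 and the 13 at which the sexes moved alike.

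The counts follow in part from the list lengths, because the male ZT12 list is long and the female ZT12 list short. Of the intervals at ZT0 only in females, 364 were at ZT12 only and 57 at ZT0 only in males, a split like the 4555 and 875 of males over all intervals. With 4 lists of 221 peaks, the opposite pattern held for 23 intervals and its reverse for 6, and the shared ones for 16 at ZT0 and 6 at ZT12. Most intervals were called in 1 sex alone: 4171 at male ZT12, 811 at male ZT0, 403 at female ZT0 and 35 at female ZT12. A further 351 were called at both times in males and at ZT0 in females, and 480 at both times in males and in neither female library.

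Intervals of the opposite pattern lay at promoters about as often as shared sites and were called less often in the controls. Of the 364, 60.2% were annotated as promoters (54.9 to 65.2), against 65.7% of the 137 intervals of all 4 libraries (57.1 to 73.6). The share was 63.0% for the 351 intervals called at both times in males and at ZT0 in females (57.7 to 68.0) and 55.7% for all intervals at ZT0 only in females, so it was not particular to the opposite pattern. Promoter shares were 59.6% for ZT0 in both sexes and 38.5% for ZT12 in both (13.9 to 68.4, 13 intervals). They were lower among intervals of a single library, with 26.6% at male ZT12 (25.2 to 27.9), 30.9% at male ZT0 (27.8 to 34.3) and 44.9% at female ZT0 (40.0 to 49.9). A control library had a call at 89.1% of the intervals of all 4 libraries (82.6 to 93.7) at 15.7% of those of the opposite pattern (12.1 to 19.8) and at 47.3% of the 351 (42.0 to 52.7). At intervals of male ZT12 alone the share was 1.56%.

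Canonical E-boxes were more frequent in promoters with a summit than in all promoters. Windows from 250 bases before to 50 bases after the gene's start were searched on both strands for the canonical E-box CACGTG, the E-box prime CACGTT, the E-box variant CACGCG, the GC box GGGCGG, the CCAAT box, and the ROR and REV-ERB element AGGTCA. The canonical E-box reads the same on both strands, the E-box forms share their first letters, and matches of different motifs were counted separately and may overlap. Of 32817 windows, 7.15% held CACGTG, and 1432 held a summit of at least 1 of the 4 libraries. Among windows with a summit, CACGTG was in 30.7% at male ZT0 (26.4 to 35.2), 32.0% at male ZT12 (29.2 to 34.9), 36.8% at female ZT0 (32.3 to 41.5) and 36.8% at female ZT12 (26.1 to 48.7). The intervals of the times overlap within each sex. Some windows held a summit at both times, and the difference between the times was not tested. The windows with a summit were also richer in G and C, with a median of 64.7% to 67.5% against 52.7% in all windows, and the part of base composition in these shares was not tested.

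By pattern, the share with CACGTG was 44.8% for all 4 libraries (31.7 to 58.5, 58 windows) and 40.9% for ZT12 in males with ZT0 in females (33.1 to 49.1, 154 windows). It was 26.2% at male ZT12 alone (22.8 to 29.8), 24.3% at female ZT0 alone (16.5 to 33.5), 17.3% at male ZT0 alone (11.4 to 24.6) and 19.2% at ZT0 in both sexes (6.55 to 39.4, 26 windows). The interval for the opposite pattern overlapped that for the shared sites and lay above those for male ZT12 alone and male ZT0 alone. For intervals called at both times in males and at ZT0 in females it was 41.9% (34.1 to 49.9, 160 windows), so the share was not particular to the opposite pattern. CACGCG was in 60.3% for all 4, 41.6% for the opposite pattern, 25.9% for male ZT12 alone and 9.26% of all windows, but unlike CACGTG it was lower at male ZT12 alone than at male ZT0 alone (30.2%), female ZT0 alone (29.0%) and ZT0 in both sexes (26.9%). GGGCGG was in 86.2%, 79.2%, 71.3% and 35.6% for all 4, the opposite pattern, male ZT12 alone and all windows. In the same order, CACGTT was in 17.2%, 9.74%, 9.15% and 4.69%, CCAAT in 39.7%, 42.2%, 41.5% and 37.4%, and AGGTCA in 12.1%, 13.6%, 16.6% and 16.3%. Where a window of the opposite pattern held CACGTG, its centre lay within 50 bp of the summit in 81.0% of 63 windows, at a median of 19.5 bp. For both times in males with ZT0 in females it did in 82.1% of 67. At male ZT12 alone it did in 63.9% of 166, at a median of 29.0 bp. No base outside these windows was searched.

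At the intervals that all 4 libraries shared, summits were mostly higher at ZT12 in males and mostly lower, relative to background, in females. Of the 137, 14 had high local background in at least 1 library, and the other 123 were used. The median log2 change in strength from ZT0 to ZT12 was 0.80 in males (95% interval 0.73 to 0.90, 1.74-fold), with 117 of 123 (95.1%) higher. It was -0.49 in females (-0.56 to -0.39, 0.712-fold), with 105 of 123 (85.4%) lower. In 99 of 123 (80.5%) the male value was higher and the female value lower at ZT12. It was higher in both sexes at 18, lower in both at 6, and lower in males with higher in females at 0. Across these intervals, which share their libraries, the male and the female change were weakly related (Pearson r -0.10, Spearman rho -0.13).

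The size of the female decrease depended on how libraries were scaled. Fold enrichment as deposited gave a median log2 change of 0.41 in males and -0.57 in females. Summit fragments above background without scaling gave 0.78 in males and -0.21 in females, with 83 of 123 lower. Summit fragments as counted gave 0.74 in males and -0.09 in females, with 72 of 123 lower and 48 higher. Local background fragments at these intervals were higher at ZT12 in both pairs, by a median log2 of 0.37 in males and 0.57 in females. The male increase therefore stood under each of these measures, while the female decrease was near 0 in raw fragments and came with a higher background. The control pairs, at the intervals called at both times of each, had a median log2 change in strength of 0.69 in males (109 intervals) and 0.80 in females (34 intervals). Their change depended on the measure too: fold enrichment gave 0.20 in males and 0.13 in females (-0.08 to 0.69), and raw summit fragments 0.18 and 0.90.

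**Figure D4:**
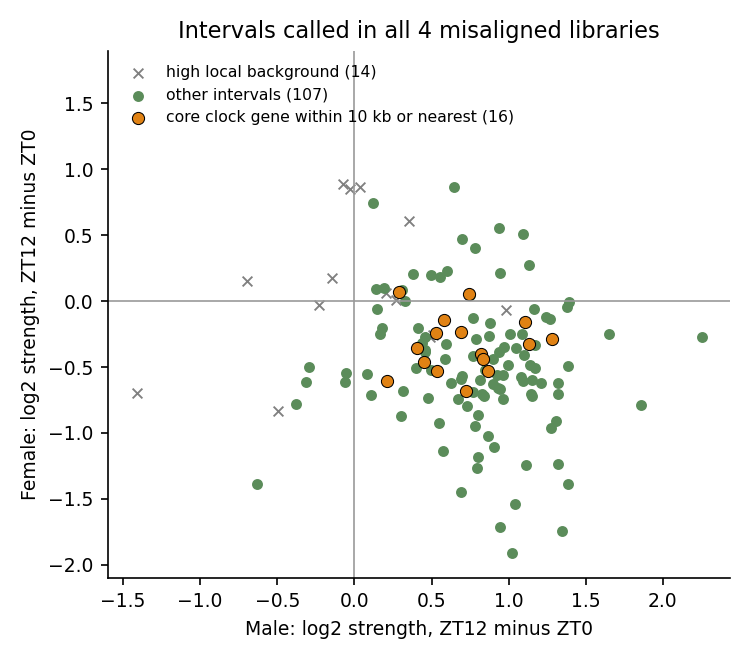
Change in strength from ZT0 to ZT12 (log2) at the 137 intervals called in all 4 misaligned libraries, in males (horizontal) and females (vertical). Orange points are intervals at core clock genes, green points other intervals and grey crosses intervals with high local background. Of the 123 points that are not crosses, 99 lie in the lower right quadrant, higher in males and lower in females.

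Of the core clock genes, 12 of 22 had a call within 10 kb in all 4 libraries and 1 differed between the times, while within 1 kb these counts were 5 and 4. Those with a call within 10 kb of their start numbered 13 at male ZT0, 13 at male ZT12, 13 at female ZT0 and 12 at female ZT12. The 12 called in all 4 (against 71 of 21900 protein-coding genes, 0.324%) were Per1, Per2, Cry1, Cry2, Nr1d1, Nr1d2, Bhlhe40, Bhlhe41, Ciart, Dbp, Tef and Hlf. Nfil3, which represses what the PAR-bZIP factors activate, was the one gene that differed. Its intron peak, on chromosome 13 from 52974461 to 52975252, had a strength of 9.20 at male ZT0, 14.3 at male ZT12 and 14.3 at female ZT0 and was not called at female ZT12. Without the peaks on high background, Per2 was lost from the 12.

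At all 17 core clock intervals called in the 4 libraries, the strength was highest at male ZT12. The female log2 changes lay between -0.68 and 0.07. At the main Per1 interval (chromosome 11, 69094535 to 69095474) it was 54.9 at male ZT0, 75.2 at male ZT12, 37.3 at female ZT0 and 27.1 at female ZT12. The summit held 246, 332, 201 and 179 fragments in that order. At the Tef interval (chromosome 15, 81810161 to 81811833), Tef being a PAR-bZIP factor, the strength was 65.0, 94.2, 48.0 and 33.1. Both genes had the order male ZT12, male ZT0, female ZT0, female ZT12.

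Ciart and the upstream Nr1d1 site were among the clock sites with the largest male change. At the Ciart promoter (chromosome 3, 95881381 to 95883164), whose sequence with 2 E-boxes is printed above, the strength was 31.8 at male ZT0, 69.7 at male ZT12, 20.9 at female ZT0 and 16.6 at female ZT12. The summit fragments at Ciart were 146, 305, 117 and 122, so the female value was lower in strength and slightly higher in raw fragments. At the Nr1d1 interval -12999 bp from the start (chromosome 11, 98782941 to 98783909), Nr1d1 encoding REV-ERB alpha, the strength was 33.8, 82.4, 30.8 and 25.2, a male log2 change of 1.28. At the Nr1d1 intron site it was 44.3, 63.8, 36.0 and 30.5. The male summits at the intron site lay 1463 bp apart, so its male values belong to different summits.

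Other repressor genes followed. Cry1 (interval at -178 bp) had strengths of 25.1 at male ZT0, 45.9 at male ZT12, 22.6 at female ZT0 and 15.6 at female ZT12. The Cry2 promoter had 25.5, 45.4, 21.4 and 15.7. Bhlhe40, a helix-loop-helix repressor that competes for E-boxes, had 18, 38.7, 14.8 and 13.2, with the female summits 923 bp apart. In all 3 the male change exceeded the female one in size.

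At 2 clock intervals the pairs moved alike in strength. Nr1d2, which encodes REV-ERB beta (chromosome 14, 18238206 to 18239473), had a strength of 67.8 at male ZT0, 83.0 at male ZT12, 42.9 at female ZT0 and 45.1 at female ZT12, log2 changes of 0.29 and 0.07. The Dbp interval at -2554 bp had 44.5, 74.3, 22.6 and 23.5, while the Dbp promoter interval at -252 bp had 40.8, 66.1, 31.4 and 26.6. Dbp is a PAR-bZIP activator of liver detoxification genes. The female differences at Nr1d2 and at the upstream Dbp site were the only upward ones among the 17 clock intervals, and there was no replicate to set them against.

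Over the 16 clock intervals of all 4 libraries without high background, strength was higher at ZT12 in 16 of 16 in males (median log2 0.71) and lower in 14 of 16 in females (median -0.34), but in raw summit fragments the female median was 0.03 with 9 of 16 higher. The 107 other intervals had medians of 0.83 and -0.52. In scaled strength, the control pairs moved upward at the clock sites called at both times. The median log2 was 1.11 over 15 intervals in males and 1.04 over 13 in females. The scale itself differed, with a lowest background of 6.16 and 4.39 fragments at male control ZT0 and ZT12, and 4.84 and 5.67 in females. Over all intervals called at both control times, raw summit fragments changed by 0.18 in males and 0.90 in females. The clock sites were stronger than the rest (median geometric mean strength 36.1 against 10.9), and 15 of the 31 intervals in the strongest 25% were clock sites. That class had medians of 0.77 in males and -0.33 in females.

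**Figure D5:**
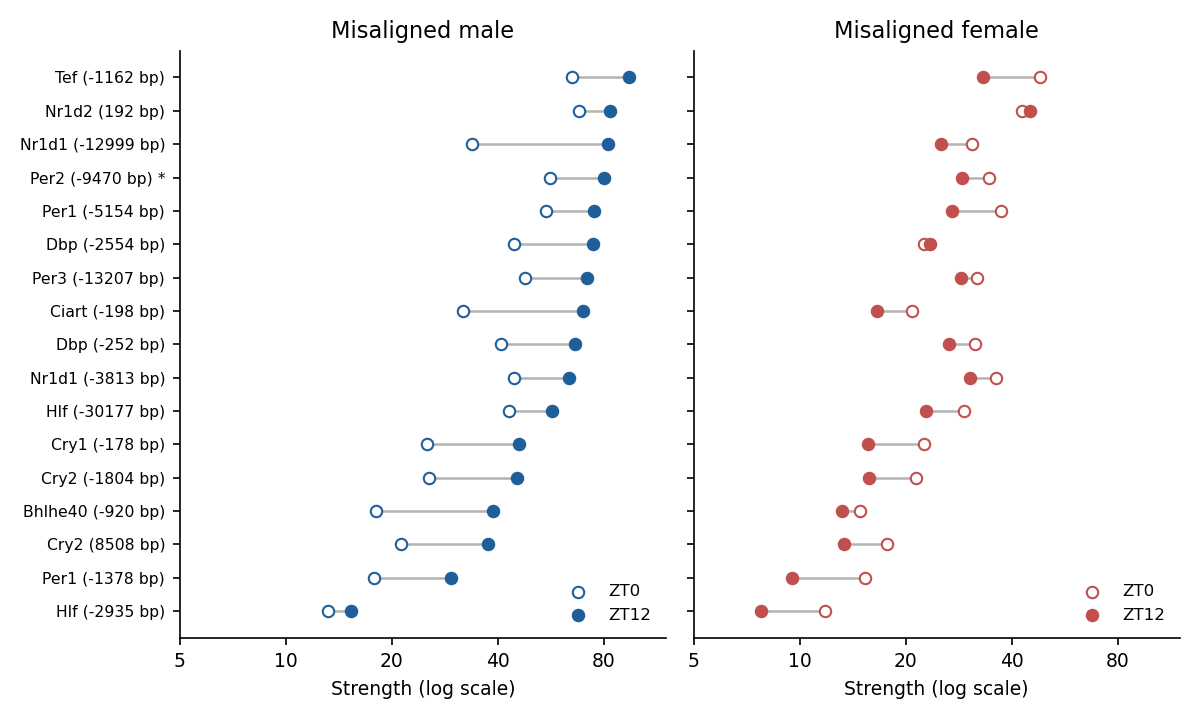
Strength (log scale) at ZT0 (open) and ZT12 (filled) of the 17 core clock intervals called in all 4 misaligned libraries, in males (left) and females (right), with the distance to the annotated start. The star marks Per2, which had high local background at female ZT12. All 17 male points are higher at ZT12, and 15 of 17 female points are lower.

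Per2 and Bhlhe41 need their details. The Per2 interval (chromosome 1, 91458796 to 91459875) had strengths of 56.2, 80.1, 34.6 and 28.9, but its local background at female ZT12 was 64.6 fragments, against 9.02, 12.0 and 7.17 in the other libraries. Bhlhe41, a relative of Bhlhe40, counted in all 4 libraries through different intervals. The interval 9296 bp from its start was called with a strength of 17.6 at male ZT0, 36.2 at male ZT12 and 7.07 at female ZT12, and not at female ZT0. The promoter interval was called with 18.8 at male ZT12 and 3.30 at female ZT0. Per3 was outside 10 kb of the authors' start (-13207 bp), and its interval had 47.9, 71.6, 31.9 and 28.8.

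The largest changes in opposite directions, ranked by the smaller of the male and the female log2 change, were not at clock genes. At the promoter shared with Pcbp1 (authors' gene 1600020E01Rik; Pcbp1 encodes an RNA-binding protein) the strength was 7.00 at male ZT0, 18.3 at male ZT12, 16.6 at female ZT0 and 6.34 at female ZT12, log2 changes of 1.38 and -1.39. At the Trim37 promoter (authors' gene Gm11491; Trim37 is a ubiquitin ligase) it was 5.76, 14.6, 11.4 and 3.40. At Nup50, a nuclear pore protein, it was 8.91, 22.3, 11.6 and 4.89. In each the 2 high libraries were male ZT12 and female ZT0. Within each sex that order follows from the ranking, as 0 shared intervals without high background moved the reverse way.

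Ccne1 and Pcsk4 completed the 5 largest by that ranking. Ranked by the gap between the sexes, others would enter, such as Adh5 (1.02 and -1.91), named here after its values were seen. The interval 14492 bp from Ccne1, which encodes cyclin E1 (chromosome 7, 38084242 to 38085513), had strengths of 17.9 at male ZT0, 36.7 at male ZT12, 23.7 at female ZT0 and 8.15 at female ZT12. Its summit fragments were 89, 164, 128 and 61, so the female decrease stood in raw fragments too. Pcsk4, a proprotein convertase, had 6.49, 14.0, 7.78 and 3.28, with the female summits 419 bp apart.

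Few sites changed alike by a large amount. Igsf8, an immunoglobulin superfamily membrane protein, had an intronic interval (chromosome 1, 172309774 to 172310576) with strengths of 28.8 at male ZT0, 45.1 at male ZT12, 9.49 at female ZT0 and 17.3 at female ZT12. The intronic interval nearest Gm22676, within 10 kb of the apoptosis inhibitor gene Aven, had 15.2, 29.1, 11.5 and 16.9. Sox5os1 had 7.64, 16.3, 3.91 and 5.56. All 3 were higher at ZT12 in both sexes.

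Lower at ZT12 in both was Senp8, whose promoter carries an E-box at the summit in the sequence above: the strengths were 9.22, 5.97, 10.6 and 4.03 and the summit fragments 48, 36, 62 and 39. The remaining interval of this group lay on mitochondrial DNA at mt-Tv and had high background. Outside the 5 on each side, the strong interval near Kmt2a, which encodes a histone H3 methyltransferase (chromosome 9, 44881170 to 44881971), had 58.6, 63.8, 39.1 and 65.6. At female ZT12 it was the strongest interval without high background, and its summit held 413 fragments against 208 at female ZT0.

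The strongest intervals called at opposite times were ranked by the lower -log10 q of the 2 libraries, which favours sites that are strong in both. The promoter of Mllt1, a subunit of the super elongation complex (chromosome 17, 56935478 to 56935933), had 13.5 at male ZT12 and 12.3 at female ZT0. The Marchf8 promoter (authors' gene Gm23527) had 15.0 and 12.9, and the promoter of Gga2, a Golgi sorting adaptor, 13.8 and 11.8. None of the 3 was called at misaligned male ZT0 or misaligned female ZT12, but the Marchf8 interval was called at male control ZT0 (6.08). The others of the 10 strongest were near Ripor3, Kmt2c, Ttc7, Smarca2, Prdx6, Lpcat3 and Pnrc1. Their strengths were 11.0 to 19.1 at male ZT12 and 8.48 to 11.8 at female ZT0. Those near Ripor3, Kmt2c, Smarca2, Prdx6 and Pnrc1 were also called at male control ZT0. Of these, Smarca2 (4.51) and Prdx6 (7.58) were called at male control ZT12 too, and Pnrc1 (5.11) at female control ZT12. The male value was the higher in all 10, and at Ttc7 it was 19.1 against 9.47. Prdx6 encodes a peroxiredoxin and Lpcat3 a phospholipid acyltransferase of the liver. Over all 364, the median strength was 7.09 at male ZT12 and 4.86 at female ZT0.

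The reverse pattern was thin. Its 4 intervals were near Gm37352 (7.98 at male ZT0, 6.31 at female ZT12), Slc7a10 (5.93 and 5.35), and Gm22862 and Gm10715, the last 2 with high background. Gm22862 was called in 4 of the 8 BMAL1 libraries, as was Gm10715. Without high background 2 intervals were left.

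Intervals at ZT12 only in both sexes were led by the Trim45 promoter, with a strength of 16.6 at male ZT12 and 6.45 at female ZT12. Gm13065 had 10.3 and 5.71, and the interval within 10 kb of Bnip3, a mitophagy receptor gene, had 6.72 and 4.68. Slc13a2, a dicarboxylate transporter, had 4.83 and 4.15. Further down were the promoters of Abhd14a and Prr3 with Gnl1, an interval at -35551 bp from the gluconeogenic gene Fbp1 and an intronic one at the splicing factor gene Mbnl1. Male values exceeded female ones in 9 of the 10 strongest; the exception was Gm12249, with 3.33 and 3.93.

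Intervals at ZT0 only in both sexes were led by mitochondrial DNA at mt-Tp and mt-Cytb, both of high background. Then came the promoter of Ndrg1, a stress-responsive gene, with a strength of 5.71 at male ZT0 and 5.98 at female ZT0, and the promoter of Fam193a (authors' gene Rnf4) with 5.98 and 7.45. Uroc1, an enzyme of histidine breakdown in liver, had 6.54 and 5.10, and the shared promoter of Klhdc3 and Mea1 had 6.93 and 4.72. Slc25a47, a mitochondrial carrier of hepatocytes, had 6.83 and 6.20. Among the 8 nuclear intervals of the 10 strongest, none exceeded 7.45. Over the 57 intervals the median strength was 4.85 in males and 4.66 in females.

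Sites called in 1 of the 4 misaligned libraries were led by a transcript of unknown role, AU019990, with a strength of 20.5 at male ZT12, followed by the promoters of Engase (17.7) and Ccdc88c (17), an interval at Gm13176 (14.2) and one at -1653 bp from Ptma (15.7), which both male control libraries also had (4.57 at ZT0 and 7.26 at ZT12). At female ZT0 alone they were near Prr18 (10.5), Srebf1 (8.02), P2ry2 (7.40), Mir6715 (7.12) and n-R5s47 (8.52). Srebf1 encodes SREBP-1, the regulator of fatty acid synthesis. At male ZT0 alone, besides Gm11168 on high background, they were Mir5133 (8.29), Pcgf5 (8.59), Akap9 (7.33) and Cnst with Tfb2m (7.11). At female ZT12 alone, 2 of the 5 strongest had high background, and the others were Gm22 (5.01, also called at female control ZT12), Prkab1 (5.45) and Redrum (3.56).

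Gene lists were counted by the authors' nearest gene within 10 kb, and for all 21900 RefSeq protein-coding genes the counts were 771 at male ZT0, 1950 at male ZT12, 644 at female ZT0 and 100 at female ZT12. Called at ZT12 and not ZT0 were 1467 genes in males (6.70%) and 28 in females (0.128%), and at ZT0 and not ZT12 288 (1.32%) and 572 (2.61%). The opposite pattern, ZT12 and not ZT0 in males with ZT0 and not ZT12 in females, held for 201 genes (0.918%). Every metabolic list had its highest count at male ZT12, also by RefSeq protein-coding starts within 10 kb. So did all protein-coding genes, with 1950 by nearest gene and 2677 by RefSeq starts, so this was not particular to the metabolic lists. By those starts, lipogenesis had 10 in place of 5 genes at male ZT12, and at female ZT12 cholesterol synthesis and uptake had 3 in place of 1 and glucose metabolism 2 in place of 0.

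Among 12 clock output genes, 6 had a peak at male ZT0, 7 at male ZT12, 6 at female ZT0 and 4 at female ZT12. Called in all 4 were Usp2 (a deubiquitinase), Por (the reductase that feeds electrons to cytochrome P450 enzymes), Nampt (which sets the rate of NAD salvage) and Tspan4. Nampt had a strength of 7.84 at male ZT0, 17.4 at male ZT12, 9.71 at female ZT0 and 5.91 at female ZT12. Usp2 at its interval at -6404 bp had 8.93, 28.1, 10.3 and 8.66, and at the one at -7678 bp 10.2, 14.7, 15.1 and no call. Wee1, a kinase that restrains mitosis, and Pck1, the gluconeogenic PEP carboxykinase, were called at ZT0 and not ZT12 in females.

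Among 13 Kruppel-like and glucocorticoid response genes the counts were 6, 8, 7 and 3 in the same order. Klf11, Klf15 and Per1 were called in all 4. Klf15, a regulator of amino acid and glucose metabolism, had 18.5, 31.6, 17.1 and 10.6 at its main interval, and its promoter interval was of the opposite pattern with 7.68 at male ZT12 and 4.07 at female ZT0. The Klf9 promoter interval had 5.31 at male ZT0, 14.2 at male ZT12, 6.11 at female ZT0 and no call at female ZT12. Another interval within 10 kb of Klf9 (authors' gene 2410080I02Rik) was called in all 4 libraries, with log2 changes of 0.69 in males and -0.59 in females. By the authors' nearest gene, Klf9, Klf10, Klf13 and Nr3c1, the glucocorticoid receptor gene, were called at ZT0 and not ZT12 in females. The counts by RefSeq starts were 6, 6, 7 and 4. Dusp1 and Nr3c1 were called at ZT12 and not ZT0 in males.

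Glucose metabolism and insulin signalling had 4, 10, 4 and 0 of 19 genes. In males G6pc, Pcx, Irs2, Insr, Ppp1r3c and Igfbp1 were called at ZT12 and not ZT0. But G6pc also had an interval outside 10 kb, 11446 bp from its start, that was called in all 4 libraries. Its log2 changes were 0.31 in males and -0.68 in females. In females Pck1, Slc2a2, Irs2 and Ppp1r3c were called at ZT0 and not ZT12. Irs2, whose promoter sequence is shown above, had 13.6 at male ZT12 and 8.69 at female ZT0, and Ppp1r3c, which targets a phosphatase to glycogen, 7.87 and 4.42. Slc2a2, the hepatocyte glucose transporter, had 5.40 at male ZT0, 15.3 at male ZT12, 5.38 at female ZT0 and no call at female ZT12.

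Cholesterol synthesis and uptake had 2, 7, 3 and 1 of 20 genes, and 2, 5, 4 and 3 by RefSeq starts. The Lss interval at -10283 bp, within 10 kb of Lss by RefSeq starts only, was called in all 4 libraries. Its log2 changes were 0.84 in males and -0.52 in females. Among those called at male ZT12 and not male ZT0 were Sc5d and Fdft1, enzymes of sterol synthesis, and among those called at female ZT0 and not female ZT12 were Insig1 and Msmo1. Insig1, which retains SREBP in the endoplasmic reticulum, had 11.8, 16.0, 12.1 and no call at female ZT12. Mvd was called at female ZT12 and not female ZT0. Lipogenesis had 3, 5, 3 and 1 of 19: Elovl5, Elovl6 and Gpam were called at ZT12 and not ZT0 in males and Lpin1 the other way, and Srebf1 and Dgat2 at ZT0 and not ZT12 in females. Thrsp was called in all 4 with high background.

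Fatty acid oxidation had 1, 5, 1 and 1 of 19 genes. Ppara, the fasting-activated nuclear receptor, was called in all 4 with 11.7, 14.5, 7.54 and 7.99, so it was higher at ZT12 in both pairs by a log2 of 0.31 and 0.08. Cpt1a, Acadm, Fgf21 and Ppargc1a were called at ZT12 and not ZT0 in males and in neither female library. Bile acid and xenobiotic metabolism had 3, 6, 2 and 2 of 18, with Cyp7a1 (which sets the rate of bile acid synthesis), Cyp8b1 and Ephx1 at male ZT12 and not male ZT0. Nr0b2, the bile acid-induced repressor SHP, was called at female ZT0 and not female ZT12, and Ugt1a1 the other way.

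Hepatocyte transcription factors had 2, 5, 0 and 0 of 13 genes by the authors' nearest gene, with Foxa2, Foxa3 and Cebpa at ZT12 and not ZT0 in males. The counts by RefSeq starts were 4, 6, 1 and 1. An interval within 10 kb of Hnf4a (authors' gene Hnf4aos) was called in all 4 libraries, with log2 changes of 0.18 in males and -0.21 in females. Onecut1 was called at both times in males, with 4.22 and 6.09. Hepatocyte secretory genes had 3, 6, 1 and 0 of 22: Apoe, Apoc3, Serpina1a and Cps1 were called at male ZT12 and not male ZT0, and Ass1 the other way. Rbp4, the plasma retinol carrier, had 4.91, 10.7, 5.53 and no call at female ZT12. Heat shock genes had 1, 4, 2 and 0 of 11. Hspa8, Hsph1 and Hsf1 were called at ZT12 and not ZT0 in males, and Hspa8 and Hspd1 at ZT0 and not ZT12 in females; the Hspa8 calls lay at different intervals.

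Inflammation and acute phase genes had 1, 5, 1 and 0 of 19, with Saa1, Orm2, Socs3, Il6ra and Cxcl1 at male ZT12 and not male ZT0. Icam1 was called at male ZT0 and not ZT12, and Crp at female ZT0 and not ZT12. Chromatin and transcription regulators had 6, 5, 4 and 3 of 16 (6, 6, 4 and 4 by RefSeq starts). Hmgn2, a nucleosome-binding protein, had 26.2 at male ZT0, 41.7 at male ZT12, 17.7 at female ZT0 and 10.6 at female ZT12. Phf1, a Polycomb-associated protein, had 12.5, 24.5, 13.9 and 9.42, and Nfe2l2, the oxidative stress regulator NRF2, 6.07, 13.5, 7.03 and 4.64. These 3 were higher at ZT12 in males and lower in females, as at 99 of the 123 intervals shared by all 4 libraries.

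At intervals called at both times, the summits lay a median of 43.0 bp apart in males, with 56.3% of 985 within 50 bp, and 26.5 bp apart in females, with 74.3% of 148. Over these wider sets the median log2 change in strength was 0.65 in males (0.60 to 0.69, 865 of 985 higher) and -0.43 in females (-0.52 to -0.33, 118 of 148 lower).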

How the data were processed

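BMAL1 ChIP-seq peaks of 4 misaligned mouse liver libraries were compared, with 4 control BMAL1 libraries beside them. The submitters' processing notes name BWA 0.7.17-r1188, MACS2 2.2.7.1 and the build GRCm38. The settings, the role of the IgG libraries (not used here) and the depths are not given in the sources used here. Each deposited peak has a score, a fold enrichment (a ratio of summit to local background), a -log10 p and a -log10 q, as the authors' caller wrote them. In the deposited table, peaks from 8 lists are joined to 7043 intervals that carry each library's call, the nearest gene and its distance. Its calls were rebuilt from the lists and were identical. The lowest -log10 q of the 4 lists was 1.305 to 1.313, so a q threshold of 0.05 appears to have been used.

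Whole summit fragments and local background were solved from fold enrichment and -log10 p, of which both are functions. This succeeded for 100% of peaks in each list within a relative tolerance of 0.0001, and was tested on simulated data, as were overlaps and patterns. Strength was the excess of summit fragments over local background in multiples of the list's lowest background. Overlap required 1 bp. Shares carry exact Clopper-Pearson 95% intervals and medians of strength 95% intervals from order statistics, both over peaks or intervals, which are not replicates. With 1 library a group there is no test within a sex, and none was run over the 2 pairs, whose smallest p is 0.5 (exact sign-flip permutation test). Promoters follow the authors' annotation. Motifs were searched in RefSeq promoter windows (GRCm38.p6), whose strand was checked on 1904 pairs of overlapping windows of opposite strands, with 0 mismatching pairs. Coordinates are 1-based.

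Genes named were every core clock gene, the 10 strongest intervals of each shared or opposite pattern, the 5 strongest of each single library, the 5 largest changes in the same and in opposite directions (by the smaller of the 2 absolute log2 changes) and up to 4 members of each other list. The 18 gene lists, the named genes and the comparison were chosen with earlier results of these data known. Genes printed with promoter sequence were chosen after their values were seen. Some members of the gene lists are counted but not reported by name here. Alternatives were -log10 q of at least 3, lists of equal length, standard chromosomes, no high background, 50% overlap, fold enrichment, and promoters or lists at 1 kb, 5 kb or any distance. A common -log10 p, unscaled fragments and RefSeq starts were added after seeing the data. Python 3.11.15, numpy 2.4.6, pandas 2.3.3, scipy 1.17.1 and matplotlib 3.10.9 were used.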

Additional observations from a re-analysis of the deposited data

Results flagged for a closer look

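The pairs of misaligned livers moved in opposite directions in 2 measures, and neither difference was tested, since each group had 1 library. The ratio of peaks at ZT12 to ZT0 was 2.97 in males and 0.166 in females. The median log2 ratio of strength at intervals called at both times was 0.65 in males and -0.43 in females, and in raw summit fragments the female value was -0.03. Local background and the depth measure also differed between the female libraries, and their part in the result was not tested.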

How the results depend on the processing

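Over 127 recomputed values, 84 stayed within their counting error or within 1.5 times and 43 moved. Only peak ratios and strength medians could reverse direction, and 0 of them did. Counts and shares could not, but the order of the sexes in the overlap of ZT12 peaks reversed with lists of equal length. Lists of equal length (221 peaks) set the peak ratio to 1.00 in both sexes by construction. They gave male overlaps of 63.3% (ZT0 peaks) and 62.4% (ZT12 peaks) and female overlaps of 47.1% and 47.5%. Intervals at ZT12 only and ZT0 only were then 83 and 81 in males and 114 and 116 in females. Those at ZT12 in both sexes were 6, at ZT0 in both 16, opposite 23 and the reverse 6, and in all 4 libraries 75. Median log2 strength was 0.86 in males and -0.53 in females. At -log10 q of at least 3 the male overlaps were 60.9% and 19.7%, male ZT0-only intervals 548, and promoter shares 32.3% (male ZT12), 39.2% (male ZT0) and 59.0% (female ZT0). With 50% overlap of both peaks, the male overlaps were 42.3% and 14.2% and that of female ZT12 peaks 58.4%. Without high background, 2 intervals were at ZT0 only in males with ZT12 only in females, and 2 core clock genes were called at 1 time in a pair. Fold enrichment gave a male median of 0.28. Unscaled fragments above background gave a female median of -0.15, and raw summit fragments gave 0.56 in males and -0.03 in females. Within 1 kb, promoter shares were 25.6% (male ZT12), 28.6% (male ZT0) and 45.7% (female ZT0), and core clock genes numbered 5 in all 4 libraries and 4 at 1 time. Within 5 kb, promoter shares were 40.8%, 44.2%, 56.5% (female ZT12) and 59.5%. At any distance 2 core clock genes were called at 1 time. At a common -log10 p, the male ZT12 overlap was 19% and the male ZT12 promoter share 30.7%. Where the alternative does not itself set the value, the cause was not tested. The main limits are 1 pooled library per group, unknown depth, a female ZT12 scale that rests on 4 peaks, and lists of very unequal length. No paired analysis was possible because each group had 1 library, so no replicate number pairs samples within a sex, and the 2 pairs, 1 of each sex, cannot give a p under 0.5.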
